A study of Avena sativa with 108 samples.

Results

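The oat (Avena sativa) counterparts of MOTHER OF FT AND TFL1 (MFT) and of VIVIPAROUS-1 (VP1) were followed through grain filling, maturation and germination. They were taken as every gene whose deposited protein description named a mother of FT, viviparous or delay of germination protein. Of 68572 genes, 51071 carried a protein description and 6 met this rule. Genes without a description could not meet it, so further copies may be missed. The genes 2Dg0000304, 7Ag0001401 and 7Dg0000389 matched MFT homolog 1 of rice and are called MFT1 here, 3Ag0000343 and 3Cg0000275 matched MFT homolog 2 of rice and are called MFT2, and 4Ag0003361 matched VP1 of maize. The IDs are those of the OT3098 v2 gene models without their shared prefix, and their coordinates are not analysed here. No gene carried a delay of germination description, so DOG1 has no member, and 4 genes described as DOG1-like are given apart.

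RNA-seq had been made from 2 Canadian spring oat cultivars, CDC Morrison and AC Morgan. Whole developing grain was taken at 5, 10, 15, 20, 25, 30, 35 and 40 days postemergence of the panicle (DPE), and each biological replicate was 10 grains from 1 panicle. Embryo and endosperm were taken at 0 h and after 3, 6, 24 and 48 h of germination on damp paper under long days, and what the germination replicates were is not given in the sources used here, so their p-values measure the spread between these samples. Each cultivar, tissue and time had 3 libraries, except CDC Morrison at 10 DPE, where 2 were used.

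MFT belongs to the phosphatidylethanolamine-binding protein (PEBP) family, as do the flowering regulators FT and TFL1, and in Arabidopsis and wheat it is known for its part in the control of seed germination by abscisic acid (ABA). VP1 is a B3-domain transcription factor, the maize counterpart of Arabidopsis ABI3, and maize vp1 mutants germinate on the cob. DOG1 of Arabidopsis is known for setting the depth of seed dormancy. Oat is a hexaploid with A, C and D subgenomes, so a gene often has near-identical copies, which the number and letter in each ID place on a chromosome and a subgenome.

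The counts of all genes, tested or not, summed to between 11235677 and 30846271 per library in developing grain and between 3895531 and 39871286 in germination. Levels are given in CPM, counts per 1000000 counts of the scaled library, and since gene lengths were not used, levels are compared between samples and not between genes. VP1 counts were whole numbers in all libraries, whereas counts of the MFT genes were not whole (beyond 0.001) in 33 to 54 libraries of a table, because the quantification divides reads among similar transcripts, so differences between MFT copies are uncertain and their sums are given beside them. The 3 endosperm libraries of CDC Morrison at 0 h stood apart from each other, with 7.62, 40.5 and 21.2% of their counts in the 10 most abundant genes. At 0 h, the summed level of 94 endosperm marker genes (storage proteins, granule-bound starch synthase, alpha-amylase) was 2474 to 8957 CPM in the embryo libraries and 71904 to 164789.6 CPM in the endosperm libraries. Of 45 embryo markers tested (agglutinin genes and genes of developmental regulators), 22 were higher and 6 lower in embryo. Their summed level, however, was 199.5 to 314 CPM in embryo and 283 to 539 CPM in endosperm.

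MFT1 was present in developing grain for a limited time. At 5 and 10 DPE its 3 copies were at or close to 0, between 0 and 0.33 CPM in every library used. From 15 to 25 DPE the means of the copies lay between 37.1 and 56.9 CPM in CDC Morrison and between 28.4 and 55.9 CPM in AC Morgan, and at 35 and 40 DPE between 0.979 and 1.93 CPM in CDC Morrison, against 2.27 to 3.08 CPM in AC Morgan. In whole grain, fewer cells that make a transcript cannot be told apart from less transcript per cell.

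All 6 genes came up between 10 and 15 DPE. They were all called higher at 15 than at 10 DPE, a step at which 18.1% of the 62030 genes tested were called higher (edgeR's quasi-likelihood test, Benjamini-Hochberg adjusted p under 0.05, cultivars averaged). MFT1 2Dg0000304 averaged 43.6 CPM at 15 DPE and 0.149 CPM at 10 DPE, a log2 fold change of 9.09 ± 0.63 (SE, adjusted p = 2.51e-13). For 7Ag0001401 and 7Dg0000389 it was 10.08 ± 0.70 and 10.06 ± 1.06, and without replicate 1 of AC Morgan at 10 DPE the log2 fold changes of the 3 copies were 10.11, 10.76 and 10.74. With the unused 10 DPE library of CDC Morrison in the fit they were 6.65, 6.77 and 6.28, still called. Among the libraries used, those of both times did not overlap for 5 of the 6 genes. The exception was 7Dg0000389, which had 48.7, 0 and 36.5 CPM in AC Morgan at 15 DPE. This count leaves out the unused library, which had 34.9, 38.9 and 54.8 CPM of its own unscaled total for the MFT1 copies. Overlap was not counted over all genes. MFT2 3Cg0000275 averaged 25.0 CPM at 15 DPE and 0.304 CPM at 10 DPE, a log2 fold change of 6.98 ± 0.61 (adjusted p = 2.58e-11), or 4.56 with the unused library. MFT2 3Ag0000343 had no count in any library used at 10 DPE, and its level at 15 DPE was at least 264-fold higher in CDC Morrison and at least 239-fold higher in AC Morgan than the level that 3 counts over the 10 DPE libraries would give. In CDC Morrison it averaged 12.3 CPM at 15 DPE. The unused 10 DPE library had 4.48 CPM of its own unscaled total, so these values are not on the same scale. The bound for this cultivar rests on leaving that library out. VP1 had no count in AC Morgan at 10 DPE and was at least 403-fold higher at 15 DPE on the same scale, which covers counting error only. The endosperm markers entered at the same step, with summed means in CDC Morrison of 837426 CPM at 15 DPE and 975 CPM at 10 DPE, and in AC Morgan of 432134 CPM at 15 DPE and 742 CPM at 10 DPE, and their part in the result was not tested.

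**Figure D1:**
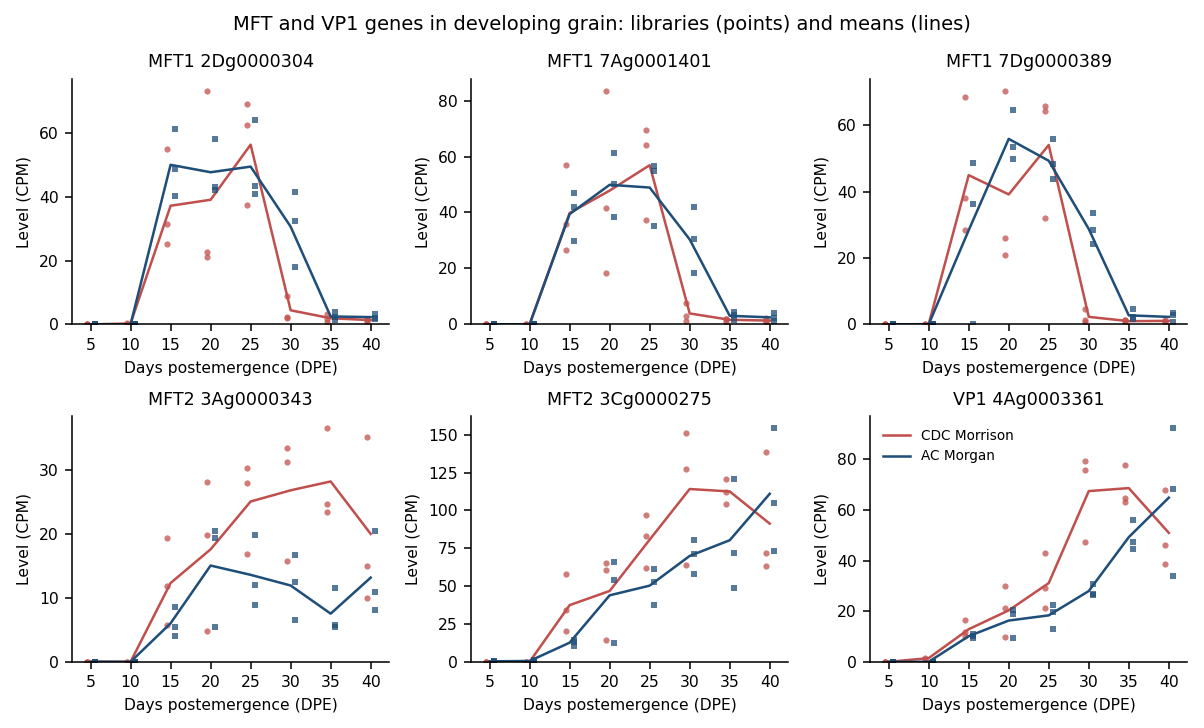
Levels of the 3 MFT1, 2 MFT2 and 1 VP1 genes in developing grain, in CPM (linear axis, from 0) against days postemergence, with each library as a point (CDC Morrison circles, AC Morgan squares) and cultivar means as lines. MFT1 is high from 15 to 25 DPE and at 3.08 CPM or less in every mean from 35 DPE, whereas MFT2 3Cg0000275 and VP1 stay high to 40 DPE.

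After 15 DPE the families parted. At 40 DPE against 15 DPE, a comparison added after the data were seen, the 3 MFT1 copies were lower and MFT2 and VP1 were higher (38% of all genes were called lower and 31.2% higher). MFT1 2Dg0000304 averaged 1.81 CPM at 40 DPE and 43.6 CPM at 15 DPE, a log2 fold change of -4.63 ± 0.41 (edgeR adjusted p = 5.66e-12), and the other copies had -4.40 and -4.55. With the 3 copies summed it was -4.54 ± 0.43. VP1 averaged 57.9 CPM at 40 DPE and 11.5 CPM at 15 DPE, a log2 fold change of 2.33 ± 0.26 (adjusted p = 2.35e-09). MFT2 3Cg0000275 had 2.21 ± 0.37 (adjusted p = 3.06e-06), and 3Ag0000343 had 0.91 ± 0.40 (adjusted p = 0.0413). The last of these calls was weak, since limma (0.18), thinning to the smallest total (0.86) and the fit with the unused library did not make it, and it was lost when any 1 of 6 libraries was left out, namely replicates 2 and 3 of AC Morgan at 15 DPE (0.87 and 0.83), replicates 1 and 2 of CDC Morrison at 15 DPE (0.92 and 0.77), replicate 2 of AC Morgan at 40 DPE (0.68) and replicate 3 of CDC Morrison at 40 DPE (0.57). In the same comparison 78 of 88 endosperm markers were lower and 4 higher (median log2 fold change -4.68, against -0.18 over all genes). Of 64 green tissue markers, chlorophyll a-b binding protein genes, 55 were lower and 2 higher, and the part of these tissues in the MFT1 change was not tested.

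The mean of 30, 35 and 40 DPE against the mean of 5, 10 and 15 DPE gave all 6 genes as called higher, when 35.8% of all genes were called higher and 41% lower. For MFT1 this direction belongs to the log scale, on which the groups near 0 at 5 and 10 DPE weigh most. On the linear scale the copies averaged 7.18, 7.15 and 6.35 CPM late and 14.6, 13.2 and 12.3 CPM early. For MFT2 3Cg0000275 and VP1 both scales gave the same direction, and the late libraries lay above the early ones in each cultivar. MFT2 3Cg0000275 averaged 96.5 CPM late and 8.50 CPM early (log2 fold change 7.12 ± 0.33, edgeR adjusted p = 1.67e-20). VP1 averaged 54.9 CPM late and 4.08 CPM early (adjusted p = 2.28e-22), with no fold given because VP1 had no count at 5 DPE.

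The fall of MFT1 came at different times in the cultivars, between 25 and 30 DPE in CDC Morrison and between 30 and 35 DPE in AC Morgan. At 25 DPE, MFT1 2Dg0000304 had 62.5, 69.0 and 37.3 CPM in CDC Morrison, against 43.3, 63.9 and 40.9 CPM in AC Morgan. At 30 DPE it had 2.02, 2.32 and 8.92 CPM in CDC Morrison, against 18.1, 32.4 and 41.3 CPM in AC Morgan. At 35 DPE it had 3.40, 1.78 and 0.625 CPM in CDC Morrison, against 2.33, 1.39 and 3.74 CPM in AC Morgan. At 30 DPE the cultivars thus did not overlap, while at 25 and 35 DPE they did. The other copies gave the same picture at 30 DPE. MFT1 7Ag0001401 had 1.12, 3.13 and 7.51 CPM in CDC Morrison, against 18.4, 30.6 and 42.1 CPM in AC Morgan. MFT1 7Dg0000389 had 0.842, 1.35 and 4.64 CPM in CDC Morrison, against 24.2, 28.5 and 33.6 CPM in AC Morgan.

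At 30 DPE the log2 difference, CDC Morrison minus AC Morgan, was -2.76 ± 0.51 for 2Dg0000304, -2.92 ± 0.53 for 7Ag0001401 and -3.60 ± 0.83 for 7Dg0000389 (edgeR adjusted p = 7.96e-05, 5.53e-05 and 0.000996), and -3.07 ± 0.56 for the summed copies. At this time point 36% of all genes were called, and 19.1% of all genes were called lower in CDC Morrison. The 3 calls were made with any single library left out, but with replicate 1 left out of every group at once that of 7Dg0000389 was lost (-3.32). Without replicate 3 of CDC Morrison, the highest of its group, the differences were -3.81, -3.83 and -4.71. Within CDC Morrison the step between 25 and 30 DPE was -3.63, -3.82 and -4.51 on the log2 scale for the 3 copies, all called lower (17.3% of all genes were), or -4.69, -4.73 and -5.62 without replicate 3 at 30 DPE. Within AC Morgan it was -0.69, -0.69 and -0.78, and edgeR called none of the 6 members (0.766% of all genes), with 0 at an unadjusted p under 0.05, 0 by DESeq2 and 0 by limma. Between 30 and 35 DPE the order turned round. The copies changed by -3.63, -3.31 and -3.40 in AC Morgan, all called lower (21.9% of all genes), and edgeR called none of the 6 members in CDC Morrison (0.0983% of all genes), with 2 at an unadjusted p under 0.05 and 0 by DESeq2 and limma.

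The difference of the 25 to 30 DPE step between cultivars was itself tested. It was -2.94 ± 0.69, -3.14 ± 0.71 and -3.73 ± 1.09 for 2Dg0000304, 7Ag0001401 and 7Dg0000389 (edgeR adjusted p = 0.00896, 0.00691 and 0.0343), a contrast in which 3.09% of all genes were called lower, and -3.25 ± 0.75 for the summed copies. None of the 3 was called when the unused 10 DPE library entered the fit. All 3 were also lost with replicate 1 left out of every group at once (-2.70, -2.61 and -3.22) and with replicate 2 left out of every group (-2.65, -3.01 and -3.43). The calls of 2Dg0000304 and 7Ag0001401 were made with any single library left out, with -4.00 and -4.05 (-4.84 for 7Dg0000389) without replicate 3 of CDC Morrison at 30 DPE. That of 7Dg0000389 was lost without any 1 of 7 libraries: at 25 DPE replicates 1 and 3 of AC Morgan (-3.67 and -3.72) and 1 and 2 of CDC Morrison (-3.57 and -3.60), and at 30 DPE replicate 3 of AC Morgan (-3.61) and replicates 1 and 2 of CDC Morrison (-3.36 and -3.47). For the 30 to 35 DPE step the difference between cultivars was 2.38 ± 0.75 for 2Dg0000304 (adjusted p = 0.0487, 2.64% of all genes called higher) and was not called for the other members or for the summed copies (2.20, adjusted p = 0.074). That call was weak, made in 13 of 47 fits that each left out 1 library, with values of 1.73 (without replicate 1 of CDC Morrison at 35 DPE) to 3.43 (without replicate 3 of CDC Morrison at 30 DPE).

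Endosperm markers moved with MFT1. Their summed level was 15322 to 82443 CPM in CDC Morrison and 220003 to 230496 CPM in AC Morgan at 30 DPE, and 56 of 88 were lower and 5 higher in CDC Morrison (median log2 difference -2.18, against -0.08 over all genes). Between 25 and 30 DPE, 70 of 88 were called lower in CDC Morrison and 0 in AC Morgan. Between 30 and 35 DPE, 1 was called lower in CDC Morrison and 66 in AC Morgan. A low count of calls does not mean that the markers held their level. Their median log2 change was -0.99 for the earlier step in AC Morgan and -0.91 for the later step in CDC Morrison. Few genes of any kind were called in these cases (0.766 and 0.0983% of all genes). Embryo markers summed to 214 to 377 CPM in CDC Morrison and 1003 to 1230 CPM in AC Morgan at 30 DPE, with 4 of 44 higher and 7 lower. This sum does not measure the amount of embryo, since at 0 h it was not higher in embryo than in endosperm. The green tissue markers summed to 7.44 to 9.21 CPM in CDC Morrison and 33.0 to 109 CPM in AC Morgan, with 35 of 64 lower and 37 of 64 at 0 in CDC Morrison. The part of these tissues in the MFT1 difference was not tested.

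VP1 differed at the same time point in the opposite direction. It had 75.7, 79.3 and 47.4 CPM in CDC Morrison at 30 DPE, against 26.7, 26.5 and 30.7 CPM in AC Morgan. The libraries did not overlap, and the log2 difference was 1.27 ± 0.35 (edgeR adjusted p = 0.00479, with 16.9% of all genes called higher), a call made with any single library left out but lost with replicate 2 left out of every group at once (1.10). The step between 25 and 30 DPE was 1.12 in CDC Morrison (adjusted p = 0.0124, 16.9% of all genes called higher) but was not called without replicate 2 of CDC Morrison at 25 DPE (0.90), by limma (0.42) or with replicate 1 (1.00) or 2 (0.77) left out of every group. In AC Morgan it was 0.60 and was not called. The difference of this step between cultivars was 0.51 and was not called, so the VP1 steps of the cultivars were not shown to differ. The endosperm and green tissue markers differed between the same libraries at 30 DPE, and their part in the VP1 difference was not tested.

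**Figure D2:**
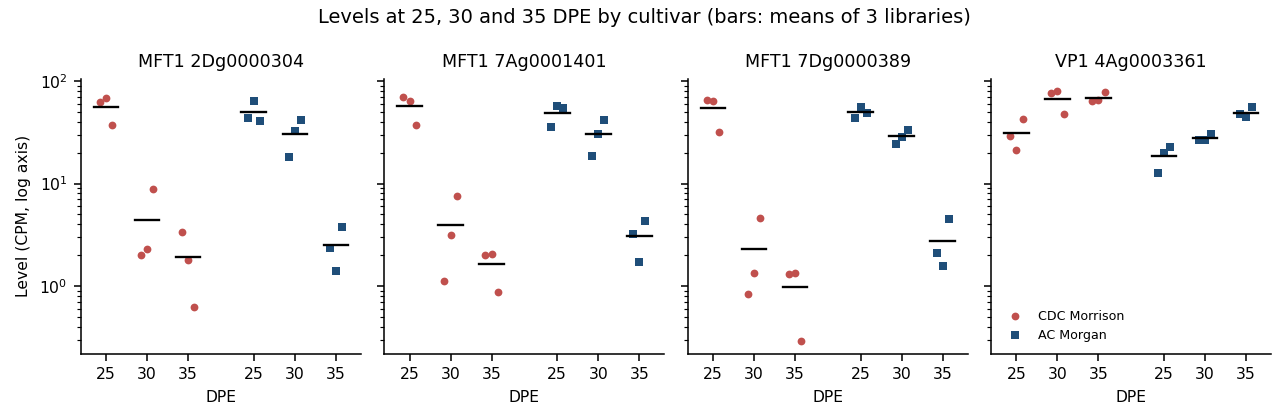
Levels of the 3 MFT1 genes and VP1 at 25, 30 and 35 DPE, in CPM on a log axis, with each library as a point (CDC Morrison red circles at the left of each panel, AC Morgan blue squares at the right) and black bars as means of 3 libraries. At 30 DPE the MFT1 libraries of CDC Morrison lie at 8.92 CPM or below and those of AC Morgan at 18.1 CPM or above.

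VP1 did not share the late fall of MFT1. Over the 6 times from 15 to 40 DPE, its group means were 12.9, 20.3, 31.1, 67.5, 68.7 and 51.0 CPM in CDC Morrison, against 10.1, 16.3, 18.4, 28.0, 49.3 and 64.9 CPM in AC Morgan. With the cultivars averaged, the step between 25 and 30 DPE was called (0.86 ± 0.24, edgeR adjusted p = 0.00738, 15.7% of all genes called higher), whereas those between 15 and 20, 20 and 25, 30 and 35, and 35 and 40 DPE were not. The call was not made by limma (0.44) or with replicate 1 (0.72) or 2 (0.73) left out of every group. VP1 was also the only one of the 6 with counts in all CDC Morrison libraries used and in no AC Morgan library at 10 DPE. It had 1.25 and 1.64 CPM in the 2 CDC Morrison libraries, at least 57.5-fold higher than the level that 3 counts over the AC Morgan libraries would give (adjusted p = 7.19e-08, 14.4% of all genes called higher).

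MFT2 was also still high at 40 DPE. At 15 DPE, MFT2 3Cg0000275 had 34.2, 20.4 and 57.7 CPM in CDC Morrison, against 13.1, 14.4 and 10.5 CPM in AC Morgan. At 30 DPE it stood at 151, 127 and 63.8 CPM in CDC Morrison, against 58.1, 71.2 and 80.5 CPM in AC Morgan. By 40 DPE it stood at 71.7, 63.2 and 139 CPM in CDC Morrison, against 73.4, 154 and 105 CPM in AC Morgan. At 15 DPE all CDC Morrison libraries were above all AC Morgan libraries, but edgeR called none of the 6 members there (9.38% of all genes), with 1 at an unadjusted p under 0.05, 1 by DESeq2 and 1 by limma. For 3Cg0000275 the adjusted p was 0.0521. With any 1 of 9 libraries left out (1.57 to 1.85) the call was made, by the p threshold of the fit of all libraries. MFT2 3Ag0000343 was called at 35 DPE alone, where it had 36.5, 24.6 and 23.4 CPM in CDC Morrison, against 5.72, 5.40 and 11.5 CPM in AC Morgan. These libraries did not overlap, and the log2 difference was 1.90 ± 0.57 (edgeR adjusted p = 0.022, 5.63% of all genes called higher). The call was lost without replicate 1 (1.74) or 2 (1.71) of AC Morgan or replicate 1 of CDC Morrison at 35 DPE (1.67), with the unused 10 DPE library in the fit (1.90), and with both MFT2 copies summed (0.68).

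No step of the MFT2 genes after 15 DPE was called with the cultivars averaged. Between neighbouring times, edgeR called none of the 6 members between 5 and 10 DPE (14.6% of all genes; 0 at an unadjusted p under 0.05, 2 by DESeq2 and 1 by limma), between 15 and 20 DPE (0.869%; 3, 0 and 0 in the same order), between 20 and 25 DPE (19.9%; 0, 0 and 0) or between 35 and 40 DPE (0.00645%; 0, 0 and 0). Between 25 and 30 DPE 15.6% of all genes were called lower, among them the 3 MFT1 copies, and between 30 and 35 DPE 18.3%, again with the 3 MFT1 copies.

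Cultivar differences at the earliest times rested on very few counts. MFT2 3Cg0000275 averaged 0.0193 CPM in CDC Morrison, against 0.290 CPM in AC Morgan, at 5 DPE (log2 difference -3.89 ± 1.21, edgeR adjusted p = 0.0321, 4.9% of all genes called lower), a call lost without replicate 2 (-3.77) or 3 (-3.62) of AC Morgan or replicate 2 (-3.38) or 3 (-3.37) of CDC Morrison at 5 DPE, and -5.95 without replicate 1 of CDC Morrison. At 10 DPE the same gene averaged 0.0458 CPM in CDC Morrison, against 0.563 CPM in AC Morgan (-3.46, adjusted p = 0.0251, 11.2% of all genes called lower), and MFT1 2Dg0000304 averaged 0.282 CPM in CDC Morrison, against 0.0150 CPM in AC Morgan (3.70, adjusted p = 0.0381). Both 10 DPE calls were lost without either CDC Morrison library at this time (3Cg0000275: -3.16 and -3.90, 2Dg0000304: 3.45 and 3.93). The call of 3Cg0000275 was also lost without replicate 1 of AC Morgan (-2.59), and that of 2Dg0000304 without replicate 2 (3.19) or 3 (3.35) of AC Morgan, while without replicate 1 it was 5.75. At 20, 25 and 40 DPE edgeR called none of the 6 members (13.4, 9.6 and 12.9% of all genes), with 0, 1 and 0 at an unadjusted p under 0.05 and 0 by DESeq2 and limma at each.

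Averaged over 15 to 40 DPE, a comparison added after the data were seen, all 6 members were called when 35.9% of all genes were. MFT1 was lower in CDC Morrison, at -0.74, -0.75 and -0.99 on the log2 scale. MFT2 3Ag0000343 was higher by 0.97 ± 0.23 (edgeR adjusted p = 0.000979), VP1 by 0.47 ± 0.14 (adjusted p = 0.00877) and 3Cg0000275 by 0.54 ± 0.21 (adjusted p = 0.0384), the last being lost when any 1 of 14 libraries was left out (0.47 to 0.53). These were, in AC Morgan, replicate 3 at 15 DPE, 1 at 20, 25, 30, 35 and 40 DPE and 2 at 35 DPE, and in CDC Morrison replicate 3 at 15, 20 and 40 DPE, 1 at 20, 25 and 30 DPE and 2 at 30 DPE. With the unused 10 DPE library in the fit, 2 of the 6 calls were made. Over all 8 time points edgeR called none of the 6 members (34.7% of all genes), with 0 at an unadjusted p under 0.05, 1 by DESeq2 and 4 by limma.

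At 0 h the families were split between the tissues. MFT1 was found in endosperm and close to absent from embryo, whereas MFT2 and VP1 were high in both. MFT1 2Dg0000304 had 0.266, 1.44 and 0.678 CPM in CDC Morrison embryo and 1.93, 0.666 and 1.32 CPM in AC Morgan embryo. In endosperm it had 8.98, 6.19 and 30.4 CPM in CDC Morrison and 19.3, 38.9 and 34.7 CPM in AC Morgan. Embryo libraries lay below endosperm libraries without overlap, for this copy and for the other copies. The log2 difference, embryo minus endosperm, was -4.45 ± 0.42 for 2Dg0000304 (1.05 CPM in embryo and 23.1 CPM in endosperm, edgeR adjusted p = 2.94e-11), -4.25 ± 0.40 for 7Ag0001401 and -4.82 ± 0.40 for 7Dg0000389, where 16.2% of all genes were called lower. Without replicate 2 of CDC Morrison embryo at 0 h the last was -5.46. The endosperm markers that fell with it are given with the libraries above, with 66 of 94 lower and 5 higher in embryo, and their part in the MFT1 level of the embryo samples was not tested.

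MFT2 3Ag0000343 went the other way. It had 23.8, 81.4 and 82.6 CPM in CDC Morrison embryo and 42.1, 58.6 and 45.9 CPM in AC Morgan embryo, and in endosperm 9.48, 17.2 and 72.8 CPM in CDC Morrison and 9.89, 14.7 and 15.6 CPM in AC Morgan. The tissues overlapped through replicate 3 of CDC Morrison endosperm, and the log2 difference was 1.38 ± 0.41 (edgeR adjusted p = 0.00605, 22.6% of all genes called higher), or 2.05 without that library. MFT2 3Cg0000275 averaged 150 CPM in embryo and 128 CPM in endosperm (0.24 ± 0.28, adjusted p = 0.56) and was called without the same library (0.69). The summed MFT2 copies differed by 0.42 ± 0.30 (adjusted p = 0.29), so the call of 3Ag0000343 was not made for the sum. VP1 averaged 49.7 CPM in embryo and 63.9 CPM in endosperm (-0.38 ± 0.30, adjusted p = 0.358).

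In embryo all 6 genes were lower by 24 h. At 3 h, 2 were called lower (5.2% of all genes), 2 MFT1 copies whose means at 3 h were 0.458 CPM or less in either cultivar. Endosperm markers fell at the same times, 51 of 94 being lower and 3 higher at 3 h and 64 lower and 17 higher at 6 h, and their part was not tested. The calls at 3 h were lost for 2Dg0000304 (-2.20) without replicate 2 of CDC Morrison at 0 h (-1.81) or of AC Morgan at 3 h (-1.78), and for 7Dg0000389 (-1.97) without replicate 2 of CDC Morrison at 0 h (-1.30), replicate 1 of CDC Morrison at 3 h (-1.65), replicates 1 and 2 of AC Morgan at 0 h (-1.86 and -1.88) or replicate 2 of AC Morgan at 3 h (-1.53). The third copy, 7Ag0001401, was called without replicate 2 of CDC Morrison at 3 h (-1.82). At 6 h, 5 were called lower (20.2% of all genes), with -2.27, -2.85 and -2.60 for the MFT1 copies. Without replicate 2 of CDC Morrison at 6 h 7Ag0001401 had -3.70, and 7Dg0000389 had -1.94 without replicate 2 of CDC Morrison at 0 h and -3.32 without replicate 3 of AC Morgan at 6 h. MFT2 3Cg0000275 averaged 27.6 CPM at 6 h (lowest library 16.6 CPM) and had 86.6, 136 and 161 CPM at 0 h in CDC Morrison embryo, and 39.1, 54.0 and 65.3 CPM at 6 h and 169, 195 and 152 CPM at 0 h in AC Morgan embryo. Libraries of the times did not overlap, and the log2 fold change was -1.96 ± 0.29 (edgeR adjusted p = 3.04e-07). MFT2 3Ag0000343 changed by -2.15 ± 0.41 (12.8 CPM at 6 h and 55.7 CPM at 0 h, adjusted p = 3.39e-05). VP1 was the gene not called at 6 h, with -0.58 ± 0.30 (32.2 CPM at 6 h and 49.7 CPM at 0 h, adjusted p = 0.125).

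At 24 h and 48 h all 6 were called lower in embryo (27.3 and 27.7% of all genes). No MFT1 copy had a count in any AC Morgan embryo library at 24 or 48 h, and no CDC Morrison embryo library was above 0.0582 CPM. MFT2 3Ag0000343 averaged 0.131 CPM at 48 h and 55.7 CPM at 0 h, a log2 fold change of -8.73 ± 0.63 (edgeR adjusted p = 1.39e-16). MFT2 3Cg0000275 averaged 3.79 CPM at 48 h and 150 CPM at 0 h (-5.30 ± 0.34, adjusted p = 2.09e-18). VP1 had 4.65, 3.44 and 6.43 CPM at 48 h and 17.4, 46.0 and 44.8 CPM at 0 h in CDC Morrison, and 5.25, 6.43 and 7.36 CPM at 48 h and 57.3, 66.9 and 65.6 CPM at 0 h in AC Morgan. These did not overlap, and its log2 fold change was -3.10 ± 0.33 (adjusted p = 2.59e-11), against -1.70 ± 0.31 at 24 h. Between 24 and 48 h the 2 MFT2 genes and VP1 were called lower once more (-2.97, -1.75 and -1.41; 9.77% of all genes). Over the same 48 h, 63 of 94 endosperm markers fell and 23 rose in embryo and 61 of 64 green tissue markers rose, and the part of a changing tissue makeup in the fall was not tested.

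**Figure D3:**
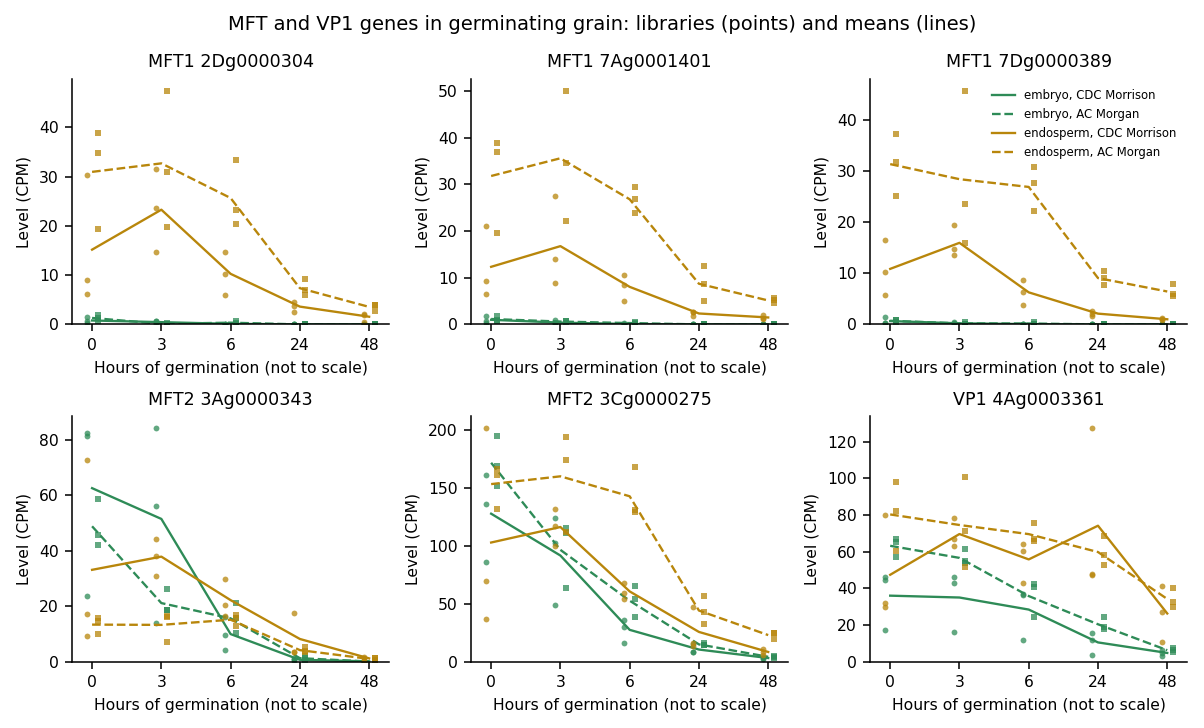
Levels of the 6 genes in germinating grain, in CPM (linear axis, from 0) against hours of germination, evenly spaced and not to scale, with each library as a point and means as lines (embryo green, endosperm brown, CDC Morrison solid with circles, AC Morgan dashed with squares). MFT1 stays at 1.31 CPM or less in every embryo mean, while the endosperm means start between 10.9 and 31.8 CPM.

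In endosperm no decline was called before 24 h. At 3 h and 6 h edgeR called none of the 6 members (0.215 and 3.91% of all genes), with 0 at an unadjusted p under 0.05 at both times, 0 by DESeq2 at both and 0 and 1 by limma. At 24 h the 5 MFT genes were called lower (21% of all genes). The MFT1 copies had log2 fold changes of -2.08, -2.14 and -2.09, 3Cg0000275 had -1.90 ± 0.29 (edgeR adjusted p = 4.09e-07) and 3Ag0000343 had -1.85 ± 0.43, or -1.15 without replicate 3 of CDC Morrison endosperm at 0 h. At 48 h all 6 were called lower (24.9% of all genes), by -3.14, -2.85 and -2.88 for MFT1, -3.15 for 3Cg0000275, -4.09 for 3Ag0000343 (-3.38 without that same library) and -1.04 ± 0.31 for VP1, whose call was lost with replicate 2 left out of every group (-1.04). Of 94 endosperm markers, 65 were lower and 17 higher at 24 h and 64 lower and 25 higher at 48 h (medians -1.88 and -1.97, against 0.12 and 0.13 over all genes), and their part in the decline was not tested.

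VP1 was the gene not called at 24 h in endosperm. It had 47.8, 47.2 and 128 CPM at 24 h and 30.0, 32.3 and 80.0 CPM at 0 h in CDC Morrison, and 52.7, 68.8 and 58.1 CPM at 24 h and 82.2, 98.3 and 60.7 CPM at 0 h in AC Morgan. The times overlapped, and the log2 fold change at 24 h was 0.11 ± 0.30 (edgeR adjusted p = 0.871). At 48 h it had 10.7, 27.2 and 41.1 CPM in CDC Morrison and 40.4, 32.4 and 30.0 CPM in AC Morgan (adjusted p = 0.00393 against 0 h). Scaling by library size alone gave 0.77, called higher, at 24 h and -0.44, not called, at 48 h. That scaling moved the median of all genes by 0.63 on the log2 scale between 0 and 24 h in endosperm.

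The change between 0 and 48 h differed between the tissues. The difference, embryo minus endosperm, was -4.64 ± 0.84 for 3Ag0000343 (edgeR adjusted p = 1.77e-05), -2.14 ± 0.41 for 3Cg0000275 (adjusted p = 4.21e-05) and -2.07 ± 0.44 for VP1 (adjusted p = 0.000195), so these 3 fell further in embryo. This difference was called below 0 for 19.6% of all genes. Without replicate 3 of CDC Morrison endosperm at 0 h that of 3Ag0000343 was -5.39. For the MFT1 copies the adjusted p was 0.00591, 0.00419 and 0.00567, but no direction is given, because embryo counts ended at 0, libraries thinned to the smallest total count gave no call (0.172, 0.159 and 0.17), and limma on the deposited normalized values gave the opposite sign. At 24 h the difference was -3.91 for 3Ag0000343 (-4.65 without that library), -1.65 for 3Cg0000275 and -1.80 for VP1, in a comparison added after the data were seen (18.6% of all genes called lower). At 48 h all 6 genes were called lower in embryo than in endosperm (25.6% of all genes), with -3.27 for 3Ag0000343, -1.91 for 3Cg0000275 and -2.44 for VP1. Their libraries did not overlap, which was not counted over all genes.

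**Figure D4:**
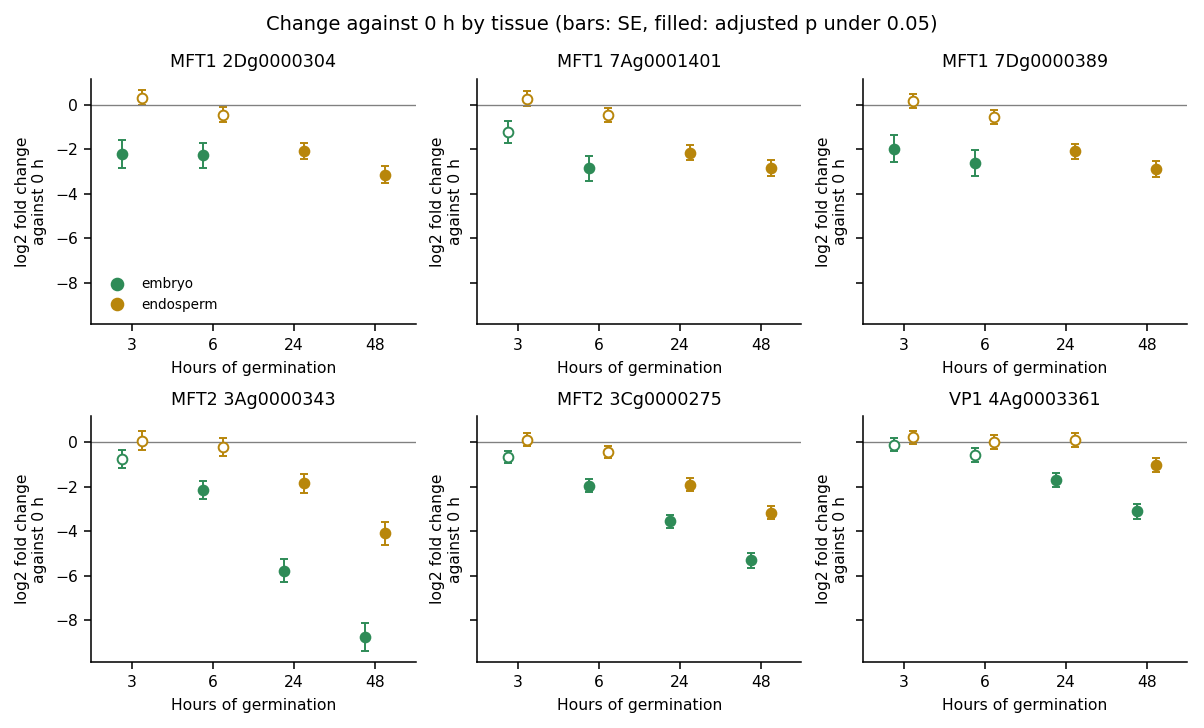
Log2 fold change of each gene at 3, 6, 24 and 48 h against 0 h, cultivars averaged, in embryo (green, left of each pair) and endosperm (brown, right), with bars as SE and filled points for adjusted p under 0.05. MFT1 embryo points at 24 and 48 h are not drawn because a group there had no counts, and MFT2 and VP1 fall further in embryo than in endosperm at 48 h.

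In germinating endosperm MFT1 was lower in CDC Morrison than in AC Morgan. Averaged over the 5 times, 5 of the 6 genes were called in endosperm (18.7% of all genes called higher and 16.8% lower). MFT1 was lower in CDC Morrison by 0.98 ± 0.22, 1.56 ± 0.22 and 1.83 ± 0.21 on the log2 scale for 2Dg0000304, 7Ag0001401 and 7Dg0000389 (edgeR adjusted p = 0.000504, 1.14e-07 and 2.45e-09), and the summed copies by 1.46 ± 0.21. MFT2 3Cg0000275 differed by -0.89 ± 0.18 (adjusted p = 6.75e-05) and 3Ag0000343 by 0.92 ± 0.29 (adjusted p = 0.00989). The call of 3Ag0000343 was lost without replicate 3 of CDC Morrison endosperm at 0 h (0.63), and the summed MFT2 copies differed by -0.65 ± 0.19. VP1 was not called (-0.24 ± 0.19, adjusted p = 0.371). Of 94 endosperm markers, 17 were higher and 25 lower in CDC Morrison.

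In embryo VP1 was lower in CDC Morrison (-0.64 ± 0.19, edgeR adjusted p = 0.00898, 13.2% of all genes called lower), with 23.0 CPM in CDC Morrison, against 36.5 CPM in AC Morgan. The call was lost with replicate 2 left out of every group (-0.69). In the same comparison 39 of 94 endosperm markers were higher and 3 lower in CDC Morrison embryo (median log2 difference 0.85, against 0.05 over all genes), and their part in the VP1 difference was not tested. MFT2 3Cg0000275 differed by -0.47 ± 0.18 (adjusted p = 0.0407), which was lost with the copies summed (-0.34) and when any 1 of 15 libraries was left out (-0.46 to -0.41). These were, in CDC Morrison, replicate 1 at each of the 5 times and 2 at 24 and 48 h, and in AC Morgan replicate 2 at 0 h, 1 and 3 at 3 h, 2 and 3 at 6 h, 1 at 24 h and 1 and 3 at 48 h. At 0 h alone, edgeR called none of the 6 members between cultivars in embryo (13% of all genes), with 0 at an unadjusted p under 0.05, 0 by DESeq2 and 0 by limma. In endosperm at 0 h 1 was called lower (6.09% of all genes), MFT1 7Dg0000389, with 10.4, 5.84 and 16.5 CPM in CDC Morrison, against 25.1, 37.3 and 31.9 CPM in AC Morgan. These did not overlap, and the log2 difference was -1.49 ± 0.45 (adjusted p = 0.021). It was lost without replicate 1 (-1.44) or 2 (-1.24) of CDC Morrison or replicate 2 of AC Morgan (-1.38). Without replicate 3 of CDC Morrison endosperm at 0 h, 2Dg0000304 (-2.03), 7Ag0001401 (-2.00), 3Cg0000275 (-1.56) and VP1 (-1.40) were also called lower in CDC Morrison, so this 1 library decided the count. Without replicate 1 of CDC Morrison 3Ag0000343 was called higher (1.76). For 7Ag0001401 (-1.34, adjusted p = 0.0526) the call turned on very little, since it was made in 25 of the 60 fits that each left out 1 library.

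Over the 36 group means of both experiments, the 3 MFT1 copies ran closely together (Pearson's r between log2 means of 0.979 to 0.993), and the 2 MFT2 genes had r = 0.935. MFT2 3Cg0000275 and VP1 had r = 0.916, whereas VP1 and the MFT1 copies had 0.515 to 0.541. These are descriptions over means that share tissue, time and libraries, and MFT copies share reads. Outside the 6 genes, those most like MFT2 3Cg0000275 among 60498 genes were 1Dg0003465 (a defensin, a small antimicrobial protein, r = 0.960), 5Cg0001813 (an oleosin, a coat protein of seed oil bodies, r = 0.959) and 7Ag0002548 (a defensin-like protein, r = 0.956). Those most like VP1 were 4Dg0002099 (a probable aldehyde oxidase, r = 0.966), 3Cg0000391 (an importin alpha subunit, which carries proteins into the nucleus, r = 0.962) and 7Cg0000554 (an indole-3-acetaldehyde oxidase, r = 0.959). Those most like MFT1 7Dg0000389 were 4Cg0000907 (a uclacyanin, r = 0.984), 4Ag0002005 (a seed allergenic protein, r = 0.981) and 4Cg0003254 (a thiol protein of lysosomes, r = 0.979).

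Of the 4 DOG1-like genes, 1 was higher late in grain development. At 15, 25 and 40 DPE, DOG1-like 3 (1Dg0002020) averaged 0.833, 18.1 and 19.9 CPM in CDC Morrison, against 0.556, 8.14 and 16.6 CPM in AC Morgan. Its log2 fold change at 40 DPE against 15 DPE was 4.72 ± 0.53 (edgeR adjusted p = 8.32e-10). At 0 h it averaged 16.9 CPM in embryo and 23.8 CPM in endosperm (-0.51 ± 0.42, adjusted p = 0.365). In embryo its decline was already called at 3 h, with 4.76 CPM at 3 h and 16.9 CPM at 0 h (-1.83 ± 0.44, adjusted p = 0.004), and reached -5.60 ± 0.57 at 24 h. In endosperm it was called at 24 h (-3.80 ± 0.48, adjusted p = 8.77e-09) and not at 3 or 6 h. Its endosperm libraries of CDC Morrison at 0 h varied widely (mean 23.6 CPM, SD 26.2 CPM). By the means, the decline did not go on to 48 h. In endosperm it averaged 2.92 CPM at 24 h and 9.02 CPM at 48 h in AC Morgan, against 0.984 and 1.22 CPM in CDC Morrison. In embryo it averaged 0.418 and 0.686 CPM at these times in AC Morgan, against 0.273 and 2.31 CPM in CDC Morrison. The other 3 (1Cg0000084, 3Ag0000459 and 3Cg0000400) were at 2.24 CPM or less in every group of developing grain. At 6 h in embryo they averaged 5.36, 7.18 and 2.64 CPM in CDC Morrison and 5.97, 14.1 and 5.11 CPM in AC Morgan. At 0 h in embryo they averaged 0.895, 1.35 and 0.211 CPM in CDC Morrison and 2.15, 4.03 and 1.22 CPM in AC Morgan. Their embryo means were thus higher at 6 h than at 0 h, unlike those of DOG1-like 3.

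Genes of the ABA pathway were counted beside the members. At 40 DPE against 15 DPE, when 31.2% of all genes were called higher and 38% lower, 7 of 18 genes of ABA synthesis were higher and 7 lower, 6 of 12 of ABA breakdown were higher and 5 lower, 3 of 16 ABA receptor genes were higher and 11 lower, 11 of 23 SnRK2 kinase genes were higher and 5 lower, and 2 of 14 bZIP factors of the ABA response were higher and 8 lower. At 48 h against 0 h in embryo, when 40.2% of all genes were called higher and 27.7% lower, 2 of 14 genes of ABA synthesis were higher and 10 lower, and 9 of 16 receptors were higher and 2 lower. The medians of these lists were -2.61 and 0.67 on the log2 scale, against 0.31 over all genes. In endosperm, when 29.1% of all genes were called higher and 24.9% lower, 1 of 14 genes of ABA synthesis was higher and 10 were lower, and 0 of 23 SnRK2 kinase genes were higher and 12 lower. The lists not named for a tissue at 48 h are not given here, so these counts do not stand for the whole pathway. The ABI5 homolog 4Dg0002645 was picked after values were seen and does not stand for the bZIP factors, of which 2 of 14 were higher and 8 lower at 40 DPE. In Arabidopsis ABI5 is a bZIP factor that acts with ABI3 to hold back germination. The oat homolog averaged 56.3 CPM at 40 DPE and 5.31 CPM at 15 DPE (3.40 ± 0.33, edgeR adjusted p = 2.14e-11). In embryo it averaged 0.196 CPM at 48 h and 67.0 CPM at 0 h (-8.34 ± 0.49, adjusted p = 1.84e-19). The counts of the bZIP list in embryo are not given here.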

How the data were processed

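The authors trimmed single-end reads of stranded mRNA libraries (Trim Galore, FastQC), removed rRNA reads (Bowtie2), quantified transcripts of OT3098 v2 (Salmon) and summed them to genes (tximport), with tool versions not given in the sources used here. Deposited estimated counts are neither normalized nor filtered. The deposited normalized values, on a log2-like scale, are the authors' variance-stabilizing transformation (DESeq2) and served as an alternative only.

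After rounding to whole numbers, the estimated counts were fitted by edgeR 4.0.16 in R 4.3.3 (quasi-likelihood test, TMM scaling, 1 fit per experiment over 16 or 20 groups). A gene was kept where 5% or more of the libraries held 5 or more counts of it (62030 and 62447), and all 6 members passed in both. P-values were adjusted over all genes of a contrast (Benjamini-Hochberg, 0.05). In fits that left out 1 library, only the members were tested and their p-values were not adjusted anew. A member was called there if its p was at or under the largest p called with all libraries. Replicate 1 of CDC Morrison at 10 DPE (2184611 counts), absent from the deposited normalized table, was left out. Bounds against groups without counts used a floor of 3 counts over the group. Overlap of libraries was looked at for the members and not counted over all genes. No 2 replicates agreed within sampling noise (108 pairs, variance at least 2.52 times that of counting).

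Members, gene lists and markers were chosen with earlier results of these data known, so no pattern is independent support. Named genes are all members, the 3 genes of largest Pearson's r with the MFT and VP1 gene of highest mean and with MFT1 7Dg0000389, and the DOG1-like genes. The MFT1 and ABI5 choices were made after values were seen. Alternatives were DESeq2 1.42.0, limma 3.58.1 on the deposited values, RLE factors, library size alone, other filters, thinning to the smallest total, all 48 libraries, summed copies, a replicate block and leaving out replicates.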

Additional observations from a re-analysis of the deposited data

Results flagged for a closer look

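The change between 0 and 48 h differed between embryo and endosperm by the test of the difference itself for all 6 genes. The log2 difference was -4.64 for MFT2 3Ag0000343, -2.14 for MFT2 3Cg0000275 and -2.07 for VP1, and the adjusted p of edgeR's quasi-likelihood test was 0.00591, 0.00419 and 0.00567 for MFT1 2Dg0000304, 7Ag0001401 and 7Dg0000389, whose direction depended on the scale.

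The step between 25 and 30 DPE differed between the cultivars by -2.94, -3.14 and -3.73 on the log2 scale for the same 3 MFT1 copies, and the step between 30 and 35 DPE by 2.38 for 2Dg0000304. The interaction of cultivar and time was called by edgeR for MFT1 2Dg0000304 (adjusted p = 0.00708), MFT1 7Ag0001401 (adjusted p = 0.0106), MFT2 3Cg0000275 (adjusted p = 0.00843) and VP1 (adjusted p = 8.65e-05), a test that called 27.6% of all genes. That of 3Cg0000275 was lost with replicate 1, 2 or 3 left out of every group (adjusted p = 0.054, 0.0909 and 0.221) and with all 48 libraries (0.323), that of 2Dg0000304 without replicate 2 (0.294) and that of 7Ag0001401 without replicate 1 (0.102) or 2 (0.206). MFT1 7Dg0000389 was called by DESeq2 (0.0276), by limma (0.0104) and with all 48 libraries (0.00735).

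The library left out, replicate 1 of CDC Morrison at 10 DPE, held the members at levels above both replicates used. In CPM of its own counts it had 34.9, 38.9 and 54.8 for MFT1 2Dg0000304, 7Ag0001401 and 7Dg0000389, 4.48 and 12.5 for MFT2 3Ag0000343 and 3Cg0000275, and 6.41 for VP1. Replicates 2 and 3 had 0.33 CPM or less for each MFT gene and 1.25 and 1.64 CPM for VP1.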

How the results depend on the processing

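Limits: 3 libraries a group, 1 fit that assumes a shared spread, MFT copies that share reads, and 0 counts in whole groups, where depth sets the bound. Of 3174 values under the alternatives, 3027 kept direction and call, 100 lost a call, 39 gained one and 8 reversed. The cause was not tested. Values are for single genes, but with copies summed the value of the sum was set against each copy, which gave 1 of the 8 reversed. With replicate 1, 2 or 3 left out of every group, 18, 30 and 12 calls were lost.

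Member calls for the cultivars over 8 time points were 0, and 1 by DESeq2 and 4 by limma. Thinning gave 3 in place of 6 for the tissue difference at 48 h and at 24 h, and 1 in place of 2 for the cultivars in embryo, as did summed copies. For the cultivars at 0 h, 1 call of 12 became 2 by library size alone, by the filterByExpr filter and by limma, and 0 with copies summed. With all 48 libraries, 2 of 6 calls were made for 15 to 40 DPE and 0 of 3 for the cultivar difference of the 25 to 30 DPE step, and MFT2 3Cg0000275 at 10 DPE reversed to 1.39. Between cultivars in endosperm the summed MFT2 copies had -0.65, the opposite sign of 3Ag0000343 alone. Limma reversed the MFT1 tissue difference (adjusted p = 0.0055, 0.0166 and 0.00106 at 48 h, 0.268, 0.107 and 0.0258 at 24 h for 2Dg0000304, 7Ag0001401 and 7Dg0000389).

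Leaving out replicates gave 12 to 13 calls (13 with all) for steps between times, 4 to 10 (9) for the cultivars at each time, 0 to 1 (0) over 8 times, 1 to 5 (4) for the interaction, 3 to 5 (4) for the tissues at 0 h, 5 to 6 (6) for endosperm at 48 h, 10 to 14 (13) for embryo and 5 to 5 (5) for endosperm at 3, 6 and 24 h, 4 to 6 (6) and 2 to 6 (6) for the tissue difference at 48 and 24 h, 0 to 2 (2) and 4 to 5 (5) for the cultivars in embryo and endosperm, 0 to 5 (1) for the cultivars at 0 h, 5 to 6 (6) for 40 against 15 DPE, 2 to 6 (6) over 15 to 40 DPE, 3 to 4 (4) and 0 to 0 (0) for the 25 to 30 DPE step and 0 to 0 (0) and 3 to 4 (3) for the 30 to 35 DPE step in CDC Morrison and AC Morgan, and 0 to 3 (3) for the cultivar difference of the first. Late against early, both tissue comparisons at 24 and 48 h and embryo at 48 h stayed at 6.

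Replicate numbers were not taken to pair the samples, since no label says so and not every correlation was over 0.1. Same-numbered libraries deviated together (every correlation over 0.1) in 1 of 105 group pairs of developing grain and 17 of 190 of germination, and a library correlated best with its own number in 34.6 and 48.6% of cases, where 1 of 3 numbers is its own. A replicate block changed no count by more than 1.5 times (14 in place of 13 calls in embryo at 3, 6 and 24 h) and 1 single call, VP1 at 6 h in embryo, which was called at -0.61.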
